A study of Mus musculus with 20 samples.

Results

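The genes described here are 40 markers of T cells, cytotoxic and natural killer (NK) cells and B cells, chosen by name and matched by symbol in the gene count table, out of 55487 genes listed. They were sorted into 16 T cell genes, 10 cytotoxic and NK genes, 6 B cell genes and 8 genes of cytokine receptors together with the cytokine Ltb. RNA was sequenced from liver of female C57BL/6J mice at 28 weeks of age. The 20 libraries came from 5 mice kept on chow throughout and 15 mice given a high-fat diet (HFD) from 8 weeks of age for 10 weeks and then, for 10 weeks more, an isocaloric HFD in which 50% of the protein was fishmeal from salmon by-products (5 mice), salmon filet (6 mice) or beef (4 mice), as the labels group them. Mouse 31 is labelled salmon filet, whereas the heading of its column in the count table says beef. Counting it as beef would give 5 mice in each group, which is also how the study describes its groups. The groups here follow the labels, and the edgeR results and summed levels of salmon filet and beef are also given with mouse 31 counted as beef, which was not done for DESeq2 or for the fits without 1 library. The 3 HFD groups pooled against chow do not depend on it. Each library is named by its diet and mouse number, and the p-values measure the spread between these mice.

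Lymphocytes patrol the liver sinusoids and gather around the portal tracts, and liver is known for being rich in NK cells. T cells recognise antigen through a receptor that signals through the CD3 chains and the kinases Lck and Zap70. B cells recognise antigen through membrane immunoglobulin, which signals through CD79A and CD79B, while NK cells and cytotoxic T cells kill their targets with perforin and granzymes. Survival and growth of these cells depend on cytokines such as interleukins 2, 7 and 15, which share the receptor chain encoded by Il2rg. Whole liver consists mostly of hepatocyte RNA, so these genes stand close to the floor of the measurement, and in bulk tissue fewer cells of a type cannot be told apart from less RNA per cell.

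The 20 libraries held 42526234 to 70266136 counts. The share of counts in protein-coding genes was 84.3% in beef mouse 35 and 93.2% to 95.6% in the other libraries. No pair of libraries of a group was alike enough to be counted as 1 sample. Hepatocyte genes gave 104100 to 130900 CPM (counts scaled to the effective library size) over their 7 genes, and Kupffer cell genes 226 to 543 CPM over 10, so the tissue matched its label. Against this, the 40 lymphocyte genes summed to 28.2 to 58.3 CPM. Mean levels were under 1 CPM for 33 of the 40 genes, which is why counts are given below.

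Stretches of 250 bases just upstream of the transcription start are shown for a member of each subset. They come from RefSeq on GRCm38.p6, which held a start for 29 of the 40 genes, and are written on the strand of the gene. Capitals mark GGAAG or its complement CTTCC, the core read by ETS family factors, and TGTGGTT or its complement AACCACA, read by RUNX family factors. Pax5 (chr4:44710695-44710944, minus strand) encodes the factor that keeps B cells committed, Cd3d (chr9:44981536-44981785, plus strand) the delta chain of CD3, Il18rap (chr1:40515112-40515361, plus strand) a chain of the interleukin 18 receptor, and Gzmb (chr14:56262335-56262584, minus strand) granzyme B.
Pax5: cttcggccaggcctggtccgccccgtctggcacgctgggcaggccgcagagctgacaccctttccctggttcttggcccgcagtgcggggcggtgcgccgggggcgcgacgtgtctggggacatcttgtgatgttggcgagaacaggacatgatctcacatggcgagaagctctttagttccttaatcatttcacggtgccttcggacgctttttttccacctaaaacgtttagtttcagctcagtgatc
Cd3d: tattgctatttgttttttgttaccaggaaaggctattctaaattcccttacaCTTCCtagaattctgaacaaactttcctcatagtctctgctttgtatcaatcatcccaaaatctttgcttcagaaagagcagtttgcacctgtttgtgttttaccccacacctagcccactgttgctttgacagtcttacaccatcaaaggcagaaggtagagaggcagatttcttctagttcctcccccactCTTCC
Il18rap: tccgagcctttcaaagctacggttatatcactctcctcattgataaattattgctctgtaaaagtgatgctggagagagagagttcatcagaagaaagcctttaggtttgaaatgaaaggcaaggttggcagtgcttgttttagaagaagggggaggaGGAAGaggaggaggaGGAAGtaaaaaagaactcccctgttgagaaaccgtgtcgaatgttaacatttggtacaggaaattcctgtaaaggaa
Gzmb: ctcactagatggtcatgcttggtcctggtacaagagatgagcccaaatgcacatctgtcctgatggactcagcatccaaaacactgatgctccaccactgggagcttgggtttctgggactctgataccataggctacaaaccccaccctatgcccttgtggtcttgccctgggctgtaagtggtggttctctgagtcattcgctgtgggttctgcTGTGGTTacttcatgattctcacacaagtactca
Of the 29 genes with a start, 21 (72.4%) held GGAAG or its complement, against 66.9% of all 27025 genes in the table, and 5 (17.2%) held TGTGGTT or its complement, against 5.1%. The latter 5 were Lck, Gzma, Gzmb, Klrk1 and Ncr1. Neither motif overlaps the other, and a match is only a match of letters.

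Per length, in the deposited TPM values, the T cell genes Zap70 and Tcf7 stood above the other 38 genes. Zap70, the kinase that binds the phosphorylated receptor, had a mean level of 8.75 TPM over the 20 livers, and Tcf7, a transcription factor of naive and memory T cells, 5.14 TPM. The other T cell genes were far lower, with 0.671 TPM for the kinase Lck, 0.452 TPM for Cd3d, 0.384 TPM for Cd3e and 0.464 TPM for Cd3g. Among B cell genes Cd79a led with 2.20 TPM and Cd79b followed with 1.33 TPM. The highest of the cytotoxic and NK genes were Nkg7, a protein of the cytotoxic granule membrane, with 1.63 TPM, and Gzmb with 1.56 TPM. Among the receptors Il2rg led with 1.80 TPM, followed by Il2rb, the chain shared by the receptors of interleukins 2 and 15, with 1.29 TPM. Only 11 of the 40 genes reached a mean of 1 TPM. The lowest was Ctla4, an inhibitory receptor of T cells, which had 0 to 6 counts per library.

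HFD-fed mice had lower levels of lymphocyte genes than chow-fed mice, most of all of B cell genes. Of the 40 genes, 37 had enough counts to be tested and 19 were called (edgeR quasi-likelihood test, adjusted p under 0.05), all 19 of them lower, whereas 9.75% of the 17120 genes tested were called, and 5.21% as lower. DESeq2 called 21 of 39, all lower, and 11.6% of all genes. Leaving out 1 library gave 8 to 21 called genes, with 8 without chow mouse 2 or 7 and 10 without chow mouse 1. Cd8b1, Ctla4 and Eomes were not tested. Fold changes lay below 0 for 33 of the 37 and above 0 for Cd8a, Zap70, Ncr1 and Gzmb, none of which was called. The median log2 fold change was -0.71 for the 37 genes and 0.005 for all genes tested. All 6 B cell genes were called, with a median log2 fold change of -1.17, as were 5 of 8 receptor genes and Ltb (-0.71), 6 of 14 T cell genes tested (-0.70) and 2 of 9 cytotoxic and NK genes tested (-0.43). The differences between these subsets were not tested. The study itself named 16 of the 40 genes from these samples, 12 of which were called with a median of -0.998 over the 16, so these are not independent evidence of a direction. Of the other 24 genes, 21 were tested and 7 were called, all lower (Tcf7, Pax5, Blk, Ms4a1, Klrb1c, Prf1 and Il2rb), with a median of -0.47 over the 21. These 24 were also chosen with earlier results of these data known, so they are not independent evidence either.

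**Figure D1:**
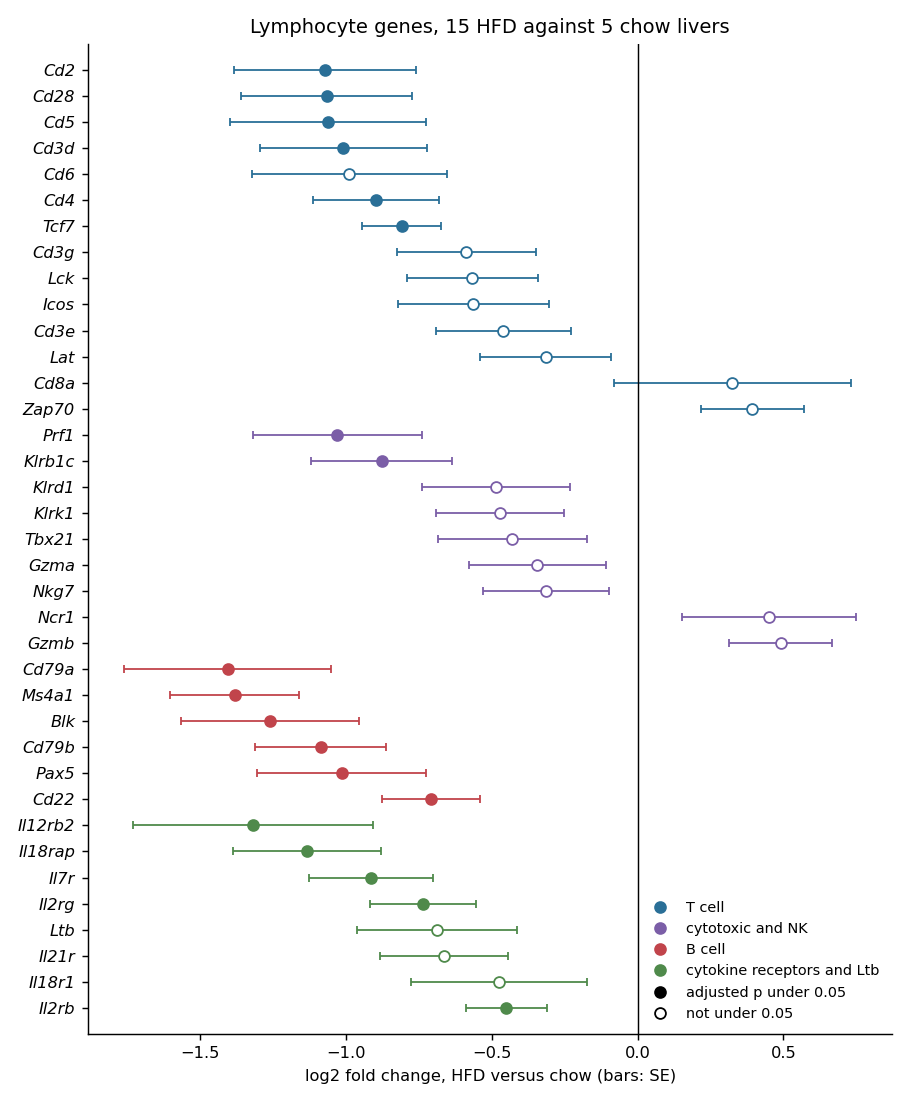
Log2 fold change of each of the 37 genes tested in 15 HFD against 5 chow livers (horizontal axis) with its standard error (bars), ordered within each subset and coloured by it; filled points are called at an adjusted p under 0.05. All 6 B cell genes are filled and lie between -1.40 and -0.71, whereas Gzmb, Ncr1, Zap70 and Cd8a lie above 0 and are open.

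The diets went together with a difference in the levels of clock genes. A clock score, the mean log2 CPM of Arntl, Npas2 and Clock minus that of 6 genes that peak in the opposite phase, was 1.269 to 3.46 in chow-fed and -4.01 to 2.46 in HFD-fed mice. With this score as a covariate 2 of the 37 genes, Tcf7 and Cd6, were called and 1.76% of all genes, while the median log2 fold change of the 37 genes was -0.70 and 21 had an unadjusted p under 0.05. The median of the B cell genes was then -0.999. Among the 15 HFD-fed mice alone, 0 of the 37 genes moved with the score at an adjusted p under 0.05 by edgeR, 3 did at an unadjusted p under 0.05, and 225 of all 17120 genes were called. There the median slope of the 37 genes was -0.02 on the log2 scale per unit of the score, and the slope of Cd6, an adhesion receptor of T cells, was -0.29 (adjusted p = 0.11). Diet and clock score thus differed together between the groups, and the part of the clock in these differences was not tested further. Each mouse was sampled once, so the score cannot tell a shift of phase from another change in these clock genes.

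**Figure D2:**
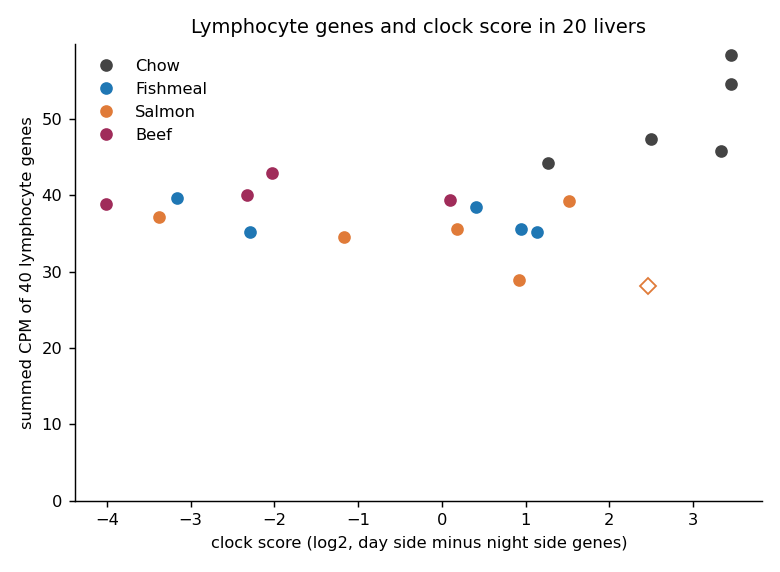
Summed CPM of the 40 lymphocyte genes (vertical axis, from 0) against the clock score of each liver (log2, horizontal axis), coloured by diet; the open diamond is mouse 31. Chow-fed livers lie between 44.3 and 58.3 CPM and HFD-fed livers between 28.2 and 43.0 CPM, and most HFD-fed livers also have a lower score.

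Components of the B cell receptor fell with HFD. Cd79a (ENSMUSG00000003379, chromosome 7 from 24897381 to 24902197, GRCm38, as are all positions below), the signalling chain alpha, had 83, 204, 99, 182 and 86 counts in chow mice 1, 2, 5, 7 and 10, and 16 to 105 (median 49) in the HFD-fed mice. Its log2 fold change was -1.40 ± 0.354 (SE) with adjusted p = 0.0137. The groups overlapped, since chow mice 1, 5 and 10 lay within the HFD range, while mice 2 and 7 stood well above it. Cd79b (ENSMUSG00000040592, chromosome 11 from 106311341 to 106314762), the chain beta, had 80, 103, 33, 90 and 45 counts in the same order and 21 to 51 (median 27) with HFD, a log2 fold change of -1.08 ± 0.224 (SE) with adjusted p = 0.00334. Here too the chow-fed mice with the fewest counts, 5 and 10, reached the range of the HFD-fed mice. Cd79a shares 298 bases at 98.7% identity with Gm32220, which had 74 counts in all.

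Genes for surface proteins of B cells fell too. Ms4a1 (ENSMUSG00000024673, chromosome 19 from 11249675 to 11266241) encodes CD20. It had 75, 91, 39, 105 and 47 counts in chow mice 1, 2, 5, 7 and 10 and 16 to 45 (median 26) with HFD, a log2 fold change of -1.38 ± 0.222 (SE) with adjusted p = 3.6e-04, and only chow mouse 5 came within the HFD range. Cd22 (ENSMUSG00000030577, chromosome 7 from 30865402 to 30880342), an inhibitory co-receptor that binds sialic acid, had 177, 240, 118, 188 and 123 counts in chow and 64 to 160 (median 98) with HFD. Its log2 fold change, -0.71 (SE 0.168, adjusted p = 0.00899), was the smallest of the 6.

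A kinase and a transcription factor of B cells fell as well. Blk (ENSMUSG00000014453, chromosome 14 from 63372836 to 63417037), a Src family kinase of B cells, had 36, 47, 26, 43 and 13 counts in chow mice 1, 2, 5, 7 and 10 and 4 to 25 (median 13) with HFD, a log2 fold change of -1.26 ± 0.304 (SE) with adjusted p = 0.0102. Chow mouse 10 lay in the middle of the HFD range. Pax5 (ENSMUSG00000014030, chromosome 4 from 44524757 to 44710487) had 65, 77, 39, 97 and 56 counts in chow and 18 to 57 (median 25) with HFD, a log2 fold change of -1.01 ± 0.289 (SE) with adjusted p = 0.0278. Chow mice 2 and 7 carried much of the B cell result. Without mouse 2 the adjusted p rose to 0.0594 for Cd79a, 0.0552 for Cd22 and 0.0664 for Pax5, and without mouse 7 to 0.0757 for Cd79a, 0.0554 for Cd22, 0.163 for Pax5 and 0.0595 for Blk. Cd79b and Ms4a1 stayed called in all 20 fits that left out 1 library. Their log2 fold changes are drawn with the rest, and their levels stand in the plot of 9 genes.

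**Figure D3:**
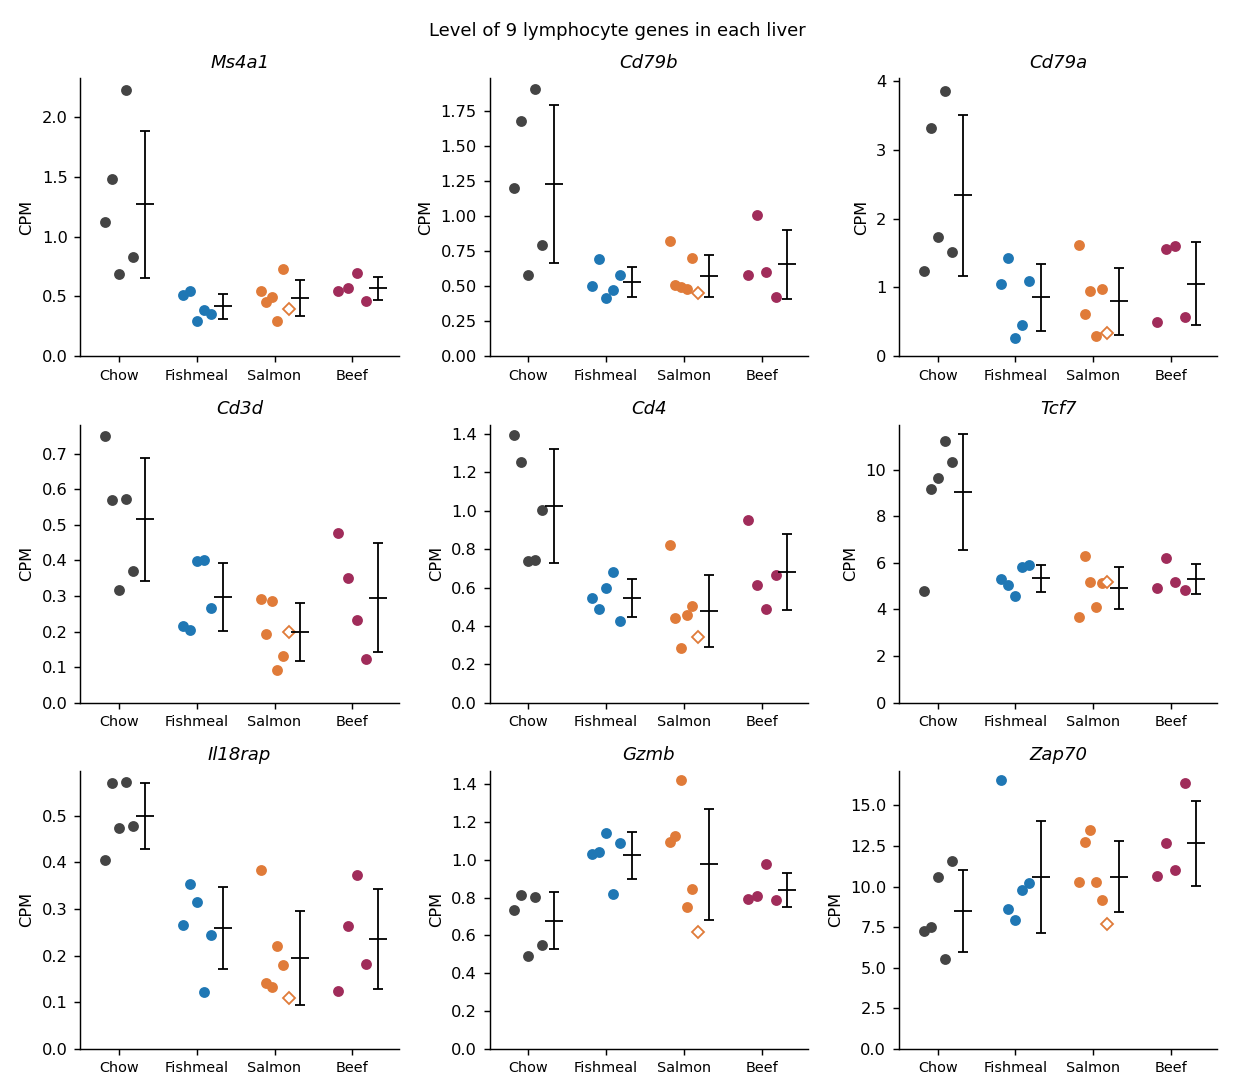
Level in CPM (vertical axes, from 0) of 9 genes in each liver, by diet; points are mice, the open diamond is mouse 31, and the bar beside each group is its mean with the SD. Il18rap does not overlap between chow and HFD, the B cell genes Ms4a1, Cd79b and Cd79a are spread widely over the chow-fed mice, and Gzmb and Zap70 overlap with no call.

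Receptor and adhesion genes of T cells fell in part. Cd4 (ENSMUSG00000023274, chromosome 6 from 124864692 to 124888221), the co-receptor of helper T cells, had 93, 77, 42, 35 and 57 counts in chow mice 1, 2, 5, 7 and 10 and 15 to 54 (median 31) with HFD, a log2 fold change of -0.90 ± 0.216 (SE) with adjusted p = 0.01. The groups overlapped only in the chow-fed mice with the lowest counts, 5 and 7. Cd3d (ENSMUSG00000032094, chromosome 9 from 44981786 to 44987339) had 50, 35, 18, 27 and 21 counts in chow and 5 to 27 (median 13) with HFD, a log2 fold change of -1.01 ± 0.285 (SE) with adjusted p = 0.0269. Its neighbours on chromosome 9 encode the other CD3 chains and were not called. Cd3e had 29 to 65 counts in chow and 18 to 55 with HFD (log2 fold change -0.46, adjusted p = 0.226), and Cd3g 33 to 78 and 15 to 48 (-0.59, adjusted p = 0.125).

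Co-stimulatory and adhesion receptors of T cells were lower by about the same amount. Cd28 (ENSMUSG00000026012, chromosome 1 from 60716800 to 60773359), which gives the second signal of activation, had 36, 32, 25, 33 and 21 counts in chow mice 1, 2, 5, 7 and 10 and 4 to 26 (median 14) with HFD, a log2 fold change of -1.06 ± 0.293 (SE) with adjusted p = 0.0229. Cd2 (ENSMUSG00000027863, chromosome 3 from 101275899 to 101287939), an adhesion receptor also found on NK cells, had 60, 76, 31, 38 and 27 counts in chow and 7 to 51 (median 18) with HFD, a log2 fold change of -1.07 ± 0.312 (SE) with adjusted p = 0.0307. Both ranges overlapped in the lowest chow-fed mice. Cd5 (ENSMUSG00000024669, chromosome 19 from 10717116 to 10739002), a negative regulator of receptor signalling, had 19, 11, 9, 11 and 9 counts in chow and 1 to 13 (median 6) with HFD. The log2 fold change was -1.06 ± 0.336 (SE) with adjusted p = 0.0472, and with so few counts the call held in 3 of the 18 fits without 1 library in which it could be tested, with adjusted p from 0.0457 to 0.189. Its relative Cd6 missed the threshold (-0.99, adjusted p = 0.0628) and passed it without beef mouse 35 (0.0183). Cd4 lost its call without chow mouse 1 (0.0607). Cd3d, Cd28 and Cd2 lost theirs without chow mouse 1 (0.136, 0.064 and 0.0928), mouse 2 (0.069, 0.0544 and 0.143) or mouse 7 (0.0682, 0.0863 and 0.0693).

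Tcf7 and Zap70, which held most of the counts of the T cell genes, had fold changes of opposite sign. Summed, these 2 genes came to 12.0, 16.7, 20.2, 16.8 and 21.9 CPM in chow mice 1, 2, 5, 7 and 10. The other 14 T cell genes came to 10.0, 9.33, 6.34, 8.45 and 6.38 CPM there, nearly the opposite order. Whether the counts of Tcf7 and Zap70 came from T cells was not tested. Tcf7 (ENSMUSG00000000782, chromosome 11 from 52252371 to 52283014) had 319, 563, 550, 531 and 584 counts in chow mice 1, 2, 5, 7 and 10 and 201 to 371 (median 279) with HFD, a log2 fold change of -0.81 ± 0.135 (SE) with adjusted p = 4.86e-04. Chow mouse 1 alone lay within the HFD range, and the call held in all 20 fits without 1 library. Zap70 (ENSMUSG00000026117, chromosome 1 from 36761798 to 36782818) had 483, 462, 602, 261 and 656 counts in chow and 425 to 998 (median 563) with HFD. Its log2 fold change of 0.39 ± 0.177 (SE) with adjusted p = 0.171 was not called. The T cell genes not called besides these were Lck (-0.57), Icos (-0.56), Lat (-0.31) and Cd8a (0.32), with adjusted p from 0.115 to 0.677. Cd8a, the co-receptor of cytotoxic T cells, had 2 to 21 counts in chow and 4 to 26 with HFD.

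Genes of cytotoxic and NK cells differed among themselves. Prf1 (ENSMUSG00000037202, chromosome 10 from 61297833 to 61304680), which encodes perforin, had 13, 22, 36, 14 and 30 counts in chow mice 1, 2, 5, 7 and 10 and 6 to 23 (median 9) with HFD, a log2 fold change of -1.03 ± 0.289 (SE) with adjusted p = 0.0259. Klrb1c (ENSMUSG00000030325, chromosome 6 from 128778485 to 128789215), the NK1.1 antigen of this strain, had 38, 28, 20, 18 and 16 counts in chow and 5 to 18 (median 12) with HFD, a log2 fold change of -0.88 ± 0.242 (SE) with adjusted p = 0.0232. These were the only 2 genes of the subset to be called, and their ranges overlapped. Prf1 lost the call without chow mouse 2 (adjusted p = 0.0502), mouse 5 (0.108) or mouse 10 (0.0778), and Klrb1c without chow mouse 1 (0.124) or mouse 2 (0.0682). Klrb1c is also 92.3% identical to Klrb1a over 780 bases and 91.9% to Klrb1b over 627 bases, which had 37 and 130 counts in all.

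No granzyme gene was called with all libraries. Gzmb (ENSMUSG00000015437, chromosome 14 from 56258838 to 56262260) had 49, 50, 28, 38 and 31 counts in chow mice 1, 2, 5, 7 and 10 and 34 to 77 (median 49) with HFD. The fold change on the log2 scale was 0.49 ± 0.178 (SE) with adjusted p = 0.0835, and 0.0493 without mouse 31. Nkg7 (ENSMUSG00000004612, chromosome 7 from 43437073 to 43438249) had 48, 43, 30, 41 and 34 counts in chow and 17 to 48 (median 30) with HFD, a log2 fold change of -0.31 ± 0.215 (SE) with adjusted p = 0.398. Gzma, another granzyme, had a log2 fold change of -0.34 (adjusted p = 0.398). The NK receptors Klrd1 (-0.49), Klrk1 (-0.47) and Ncr1 (0.45) and the transcription factor Tbx21 (-0.43) were not called, with adjusted p from 0.184 to 0.38. Of the subset's 9 genes tested, 7 had a fold change below 0.

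Of the 7 genes for cytokine receptors 5 were called, all lower. Il7r (ENSMUSG00000003882, chromosome 15 from 9505788 to 9530176), the receptor of the survival factor interleukin 7, had 50, 46, 26, 47 and 24 counts in chow mice 1, 2, 5, 7 and 10 and 11 to 37 (median 17) with HFD, a log2 fold change of -0.91 ± 0.212 (SE) with adjusted p = 0.00765. Il18rap (ENSMUSG00000026068, chromosome 1 from 40515362 to 40551705), whose protein completes the interleukin 18 receptor of NK and T cells, had 27, 35, 27, 27 and 27 counts in chow and 6 to 26 (median 11) with HFD, a log2 fold change of -1.13 ± 0.253 (SE) with adjusted p = 0.00592. In CPM every HFD-fed mouse lay below every chow-fed mouse for Il18rap, alone among the 37 genes tested, and 0.888% of all genes tested did so, while 0.695% lay above in every HFD-fed mouse. Its call held in all 20 fits without 1 library, and that of Il7r in 19, rising to 0.0511 without chow mouse 7. The partner chain Il18r1 was not called (-0.47, adjusted p = 0.355).

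The chains shared between interleukin receptors had smaller log2 fold changes than Il7r and Il18rap, a difference that was not tested. Il2rg (ENSMUSG00000031304, chromosome X from 101264378 to 101268255) had 212, 156, 90, 122 and 118 counts in chow mice 1, 2, 5, 7 and 10 and 53 to 127 (median 78) with HFD, a log2 fold change of -0.74 ± 0.181 (SE) with adjusted p = 0.0116. Il2rb (ENSMUSG00000068227, chromosome 15 from 78479256 to 78495271) had 175, 161, 131, 157 and 153 counts in chow and 76 to 161 (median 108) with HFD, a log2 fold change of -0.45 ± 0.139 (SE) with adjusted p = 0.0419. The groups overlapped in counts for both genes. Il2rg overlaps Gm20489 on the same strand, which had 0 counts, and lost its call without chow mouse 1 (adjusted p = 0.0696). The call of Il2rb held in 9 of the 20 fits without 1 library (0.0342 to 0.157).

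Il12rb2 (ENSMUSG00000018341, chromosome 6 from 67291318 to 67376188), a chain of the interleukin 12 receptor, had 33, 18, 3, 24 and 10 counts in chow mice 1, 2, 5, 7 and 10 and 1 to 15 (median 8) with HFD. The difference on the log2 scale was -1.32 ± 0.411 (SE) with adjusted p = 0.0439, and it was called in 9 of the 20 fits without 1 library (0.0124 to 0.207). It overlaps Serbp1 on the other strand over 1421 bases, and Serbp1 had 149802 counts in all. Since the library kit keeps the strand but the strand setting of the counting is not given in the sources used here, reads of Serbp1 cannot be told apart from reads of Il12rb2 in that stretch. Il21r (-0.66, adjusted p = 0.0564) and Ltb (-0.69, adjusted p = 0.117), a cytokine that shapes lymphoid tissue, were not called. Il21r passed the threshold without fishmeal mouse 20 (0.0438), salmon mouse 27 (0.0425) or beef mouse 35 (0.0216), and Ltb without beef mouse 39 (0.0268).

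Summed over each subset, the B cell genes came out at 7.73, 12.4, 6.22, 14.9 and 6.54 CPM in chow mice 1, 2, 5, 7 and 10 and at 2.77 to 6.81 CPM with HFD. Their mean was 9.56 ± 3.89 (SD, n = 5) CPM in chow and 4.61 ± 1.30 (SD, n = 15) CPM with HFD, a ratio of 0.482. The lowest chow-fed mouse lay above 13 of the 15 HFD-fed mice. Cytokine receptors and Ltb had a mean of 8.996 ± 1.68 (SD, n = 5) CPM and 5.72 ± 0.893 (SD, n = 15) CPM, a ratio of 0.636, with all 15 HFD-fed mice below the lowest chow-fed one. Cytotoxic and NK genes came to 5.89 ± 1.131 (SD, n = 5) CPM and 4.84 ± 0.86 (SD, n = 15) CPM, a ratio of 0.822, and 4 of the 15 below the lowest chow-fed mouse. For T cell genes the result turned on Zap70 and Tcf7. With all 16 genes the means were 25.6 ± 2.30 (SD, n = 5) CPM and 21.4 ± 2.64 (SD, n = 15) CPM, a ratio of 0.837, while without these 2 genes, a choice made after the data were seen, they were 8.10 ± 1.68 (SD, n = 5) CPM and 5.14 ± 1.29 (SD, n = 15) CPM, a ratio of 0.634. No test was run on these sums, since the genes were picked with results known.

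**Figure D4:**
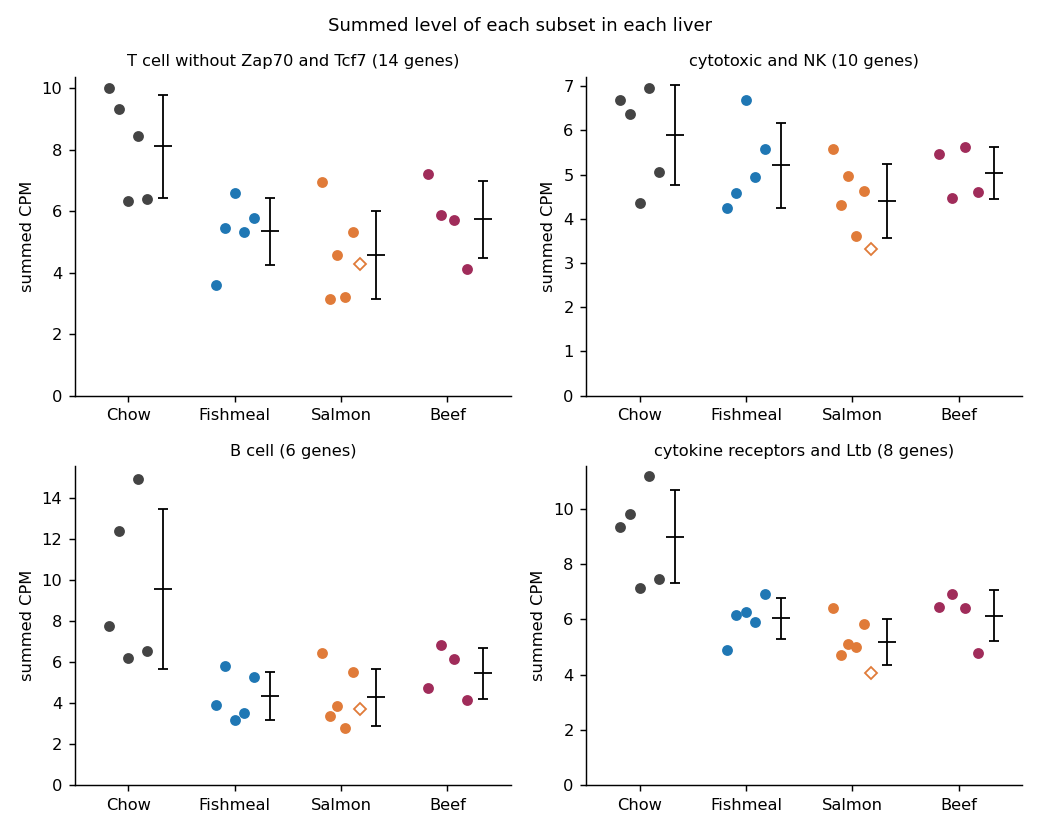
Summed CPM of 4 groups of genes (vertical axes, from 0) in each liver, by diet; points are mice, the open diamond is mouse 31, and the bar beside each group is its mean with the SD. The B cell sum is spread from 6.22 to 14.9 CPM over the chow-fed mice, and the sum of cytokine receptors and Ltb is lower in all 15 HFD-fed mice than in the lowest chow-fed mouse.

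Within a library, B cell genes were lower relative to cytotoxic and NK genes with HFD. The ratio of the 2 sums was 1.59 ± 0.429 (SD, n = 5) in chow-fed and 0.964 ± 0.263 (SD, n = 15) in HFD-fed mice, with ranges of 1.15 to 2.14 and 0.473 to 1.52 that overlapped. T cell genes without Zap70 and Tcf7 stood to cytotoxic and NK genes at 1.38 ± 0.13 (SD, n = 5) and 1.06 ± 0.186 (SD, n = 15). This drop depended on leaving out Zap70 and Tcf7, a choice made after the data were seen. With all 16 T cell genes the sums of both subsets fell to a similar extent with HFD, to 0.837 and 0.822 of the chow mean. The ratio of B cell genes to T cell genes, again without Zap70 and Tcf7, was 1.18 ± 0.386 (SD, n = 5) in chow and 0.913 ± 0.192 (SD, n = 15) with HFD, a difference smaller than the spread in chow. It too depends on that choice, since the B cell sum fell to 0.482 of the chow mean and that of all 16 T cell genes to 0.837. These ratios are given as descriptions.

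Other genes of the same cells, from lists that hold none of the 40, were called most often among B cell genes. These lists too were chosen with earlier results of these data known, and the libraries are the same, so they are not independent evidence. Of 14 further B cell genes, 10 of 14 tested were called, all lower, against 5.21% of all genes called lower, with a median log2 fold change of -1.27. The largest change was in Ighm, the heavy chain of immunoglobulin M, with 1046, 17111, 1148, 1311 and 1328 counts in chow mice 1, 2, 5, 7 and 10 and 312 to 1408 (median 668) with HFD. The log2 fold change of -2.43 ± 0.448 (SE) with adjusted p = 0.00124 rested on chow mouse 2, and was -0.67 without it (adjusted p = 0.165), though 9 of the 14 genes were still called then. Of 22 further T cell genes, 18 were tested and 6 were called, all lower, with a median of -0.60, and Lef1, a transcription factor of naive T cells, changed most (-1.96, SE 0.324, adjusted p = 4.43e-04). It had 19, 12, 12, 23 and 13 counts in chow and 0 to 7 (median 4) with HFD, so its groups did not overlap, as for the 0.888% of all genes that were lower in every HFD-fed mouse. Without chow mouse 1, 2 of the 18 were called. Of 14 further cytotoxic and NK genes, 10 were tested and 1 was called, against 9.75% of all genes, the kinase Txk (-0.90, SE 0.221, adjusted p = 0.0119), with 23 to 51 counts in chow and 11 to 29 (median 16) with HFD. It lost its call without chow mouse 1 (0.0628). With the clock score as a covariate 0 genes of these 3 lists were called by edgeR, against 1.76% of all genes, with medians of -1.13, -0.51 and -0.68 in the same order.

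Of 10 genes shared by all leukocytes 1 was called, a share near the 9.75% of all genes, Cd52 (-0.55, adjusted p = 0.0223), which lost its call without chow mouse 1 (0.125), 2 (0.0678) or 7 (0.056), 9 of the 10 lay below 0, and the median was -0.26. Their summed level was 140 to 212 CPM in chow-fed and 128 to 181 CPM in HFD-fed mice. Of plasma cell genes 3 of 4 tested were called, all lower, and 1 of 4 with the clock score as a covariate. Kupffer cell genes (0 of 10 called, 2 at an unadjusted p under 0.05), dendritic cell genes (0 of 8, 0 unadjusted), neutrophil genes (0 of 4, 1 unadjusted) and hepatocyte genes (0 of 7, 0 unadjusted) were not called by edgeR. Their median log2 fold changes were -0.134, -0.046, -0.556 and 0.051 in this order. Only 4 of 10 neutrophil genes could be tested, and all 4 lay below 0, as did 8 of the 10 Kupffer cell genes. Sinusoidal endothelium had 2 of 6 genes called, both lower, Clec4g (-0.29, adjusted p = 0.00758) and Fcgr2b (-0.34, adjusted p = 0.011), with a median of -0.25 and a summed level of 206 to 229 CPM in chow-fed and 168 to 227 CPM in HFD-fed mice. Red blood cell genes had 1 of 7 called, Alas2, which was higher (0.71, adjusted p = 0.00602), and summed to 73.9 to 213 CPM and 84.7 to 483 CPM. With the clock score as a covariate 0 genes of either list were called. The part of these cells in the lymphocyte results was not tested.

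Each HFD was then set against the same 5 chow-fed mice, which the 3 comparisons share. With fishmeal 2 of 36 genes tested were called, both lower, against 3.38% of all genes, 1.93% as lower. Ms4a1 had 31, 40, 18, 22 and 16 counts in fishmeal mice 12, 13, 14, 16 and 20, a log2 fold change of -1.59 ± 0.331 (SE) with adjusted p = 0.021. Blk had 8, 25, 9, 9 and 7 counts in the same mice, a log2 fold change of -1.60 ± 0.396 (SE) with adjusted p = 0.0467. Mouse 13 was the highest of the 5 for both. The smallest p in the other subsets belonged to Tcf7 (-0.77, adjusted p = 0.0531), Gzmb (0.59, adjusted p = 0.162) and Il18rap (-0.93, adjusted p = 0.096). The median over the 36 genes was -0.71, with 22 at an unadjusted p under 0.05, and DESeq2 called 9 (6.32% of all genes). The call of Ms4a1 held in 7 of 10 fits without 1 library, being lost without chow mouse 2 (0.0596), fishmeal mouse 14 (0.0637) or fishmeal mouse 20 (0.0587), and that of Blk in 2 of 10 (0.0173 to 0.121). Tcf7 passed the threshold without chow mouse 1 (0.00208), Cd28 without fishmeal mouse 16 (0.0372) and Cd79b without chow mouse 5 (0.0247).

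With salmon filet 9 of 36 genes tested were called, all lower, against 4.46% of all genes, 2.32% as lower. They were the T cell genes Tcf7 (-0.88, adjusted p = 0.0253), Cd28 (-1.40, adjusted p = 0.0352), Cd3d (-1.39, adjusted p = 0.0308) and Cd4 (-1.12, adjusted p = 0.0392), the B cell genes Ms4a1 (-1.37, adjusted p = 0.0289) and Pax5 (-1.25, adjusted p = 0.042), and Il18rap (-1.36, adjusted p = 0.0234), Il2rg (-0.92, adjusted p = 0.016) and Ltb (-1.02, adjusted p = 0.0463). Il2rg had 58 to 85 (median 70) counts in the 6 mice, and its call held in all 11 fits without 1 library. That of Il18rap held in 8 of the 11, those of Tcf7, Cd3d and Ms4a1 in 6 each and that of Cd28 in 5. The calls of Pax5 and Ltb held in 3 each and that of Cd4 in 2. In the cytotoxic and NK subset 0 of 9 genes were called by edgeR, 6 reached an unadjusted p under 0.05, and the smallest p was that of Klrb1c (-0.93, adjusted p = 0.0602). With mouse 31 counted as beef or left out 6 of 36 were called (4.42% of all genes). Pax5 (0.0628), Cd4 (0.0612) and Ltb (0.0695) lost their calls then, as they did without most other single mice. The median of the 36 genes was -0.85, or -0.84 with mouse 31 counted as beef, and DESeq2 called 20 (8.55% of all genes). Without chow mouse 2 or 7 only 1 gene was called in each fit, without salmon mouse 25 or 26 it was 2, and without chow mouse 1 or salmon mouse 23 it was 5. Without chow mouse 5 it was 13.

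With beef 0 of 37 genes tested were called by edgeR, against 2.48% of all genes, while 15 had an unadjusted p under 0.05 and DESeq2 called 4 (Tcf7, Il7r, Ms4a1 and Il18rap), and 6.66% of all genes. The smallest p of each subset belonged to Tcf7 (-0.77, adjusted p = 0.0897), Ms4a1 (-1.16, adjusted p = 0.109), Il18rap (-1.11, adjusted p = 0.0973) and Klrb1c (-1.04, adjusted p = 0.216). The median over the 37 genes was -0.55. With mouse 31 counted as beef 0 of 35 were called by edgeR (3.05% of all genes), 17 with an unadjusted p under 0.05, and with a median of -0.58. Without chow mouse 1 Tcf7 was called (0.00926), and without beef mouse 32 Il2rg was (0.0454). The beef group is the smallest by label, with 4 mice, and holds the library with the low protein-coding share.

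**Figure D5:**
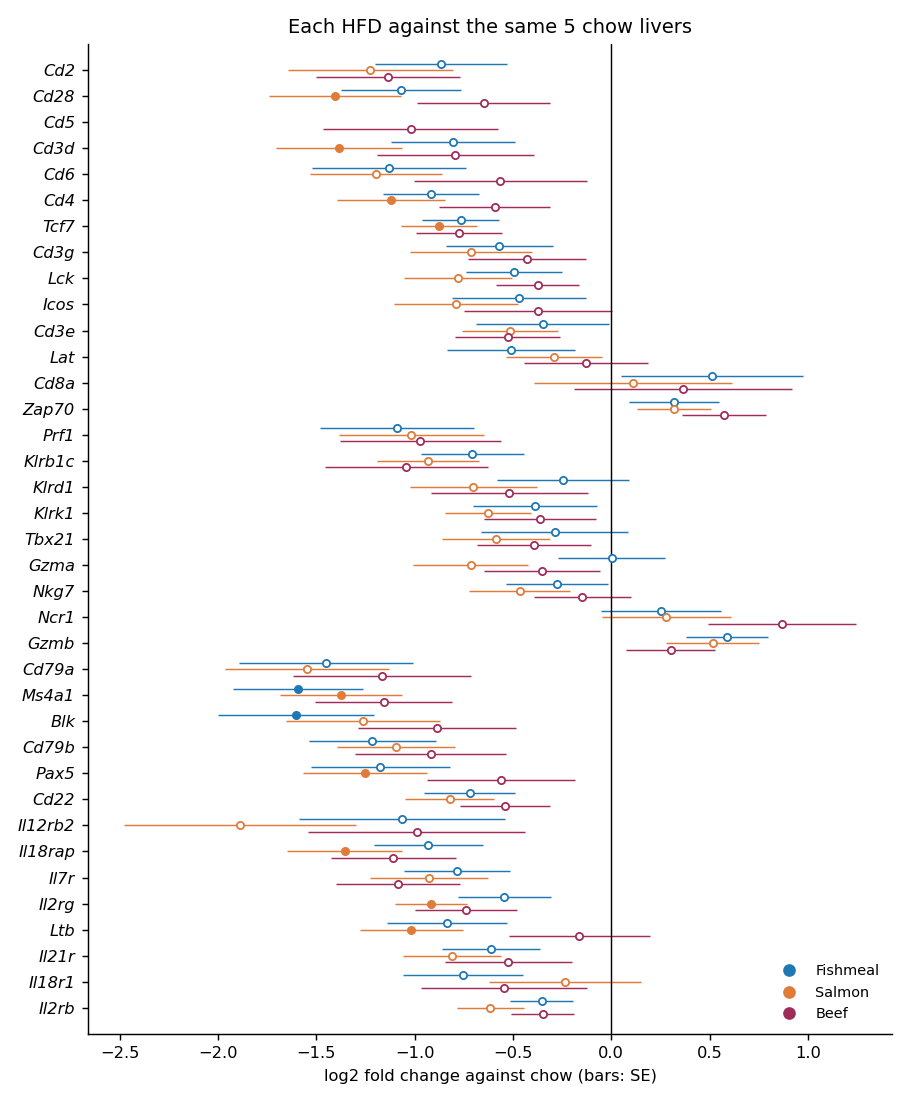
Log2 fold change of each gene tested with fishmeal, salmon filet or beef against the same 5 chow livers (horizontal axis) with its standard error (bars), mouse 31 counted as salmon filet; filled points are called at an adjusted p under 0.05. The 6 B cell genes lie below 0 with all 3 diets, filled points are found for fishmeal at Ms4a1 and Blk and for salmon filet at 9 genes, and none is filled for beef.

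Between the HFD groups no difference in these genes passed the test. Of 33 genes tested in fishmeal against salmon filet 0 were called by edgeR or DESeq2 (0.157% and 0.454% of all genes), and just 1 reached an unadjusted p under 0.05. That gene, Gzma, had 42, 42, 43, 42 and 38 counts in fishmeal mice 12, 13, 14, 16 and 20 and 14 to 37 (median 23.5) with salmon filet, a log2 fold change of 0.73 ± 0.239 (SE) with adjusted p = 0.772 by edgeR. In CPM the groups overlapped, from 0.57 to 0.846 with fishmeal and from 0.254 to 0.676 with salmon filet. The difference was not called, and it was 0.61 with mouse 31 counted as beef (adjusted p = 0.897, with 0.17% of all genes called). The smallest p of the other subsets belonged to Blk (-0.32, SE 0.393), Il2rg (0.38, SE 0.195) and Cd3d (0.59, SE 0.33), each with an adjusted p of 0.999. The median of the 33 genes was 0.20, or 0.12 with mouse 31 counted as beef.

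In fishmeal against beef 0 of 35 genes were called by edgeR or DESeq2 (0.00607% and 0.137% of all genes, and 0.0245% by edgeR with mouse 31 counted as beef), and at an unadjusted p under 0.05 there were also 0. Blk (-0.72, SE 0.38), Cd4 (-0.33, SE 0.266), Ltb (-0.67, SE 0.358) and Ncr1 (-0.62, SE 0.348), an activating NK receptor, had the smallest p of their subsets, each with an adjusted p of 1. The median was -0.12, or 0.002 with mouse 31 counted as beef. In salmon filet against beef 0 of 34 genes were called by edgeR or DESeq2 (0% and 0.00347% of all genes, and 0% by edgeR with mouse 31 counted as beef), and just 1 reached an unadjusted p under 0.05. Ltb had 17 to 34 (median 24) counts with salmon filet and 28, 41, 58 and 26 in beef mice 32, 35, 39 and 40, a log2 fold change of -0.86 ± 0.313 (SE) with adjusted p = 0.999 by edgeR. With mouse 31 counted as beef it was -0.58 (adjusted p = 0.922). Pax5 (-0.70, SE 0.347), Cd28 (-0.76, SE 0.429) and Ncr1 (-0.59, SE 0.366) had the smallest p of the other subsets. The median of the 34 genes was -0.27, or -0.11 with mouse 31 counted as beef.

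Summed levels of the 3 diets overlapped, and their differences were not tested. Over all 40 genes the mean was 36.85 ± 2.101 (SD, n = 5) CPM with fishmeal. It was 33.96 ± 4.477 (SD, n = 6) CPM with salmon filet and 40.33 ± 1.83 (SD, n = 4) CPM with beef. Mouse 31 counted as beef made these last means 35.12 ± 3.881 and 37.9 ± 5.655 CPM. All 16 T cell genes had means of 21.28, 20.1 and 23.7 CPM with fishmeal, salmon filet and beef. For B cell genes the means were 4.33 ± 1.158 (SD, n = 5) CPM with fishmeal, 4.27 ± 1.401 (SD, n = 6) CPM with salmon filet and 5.45 ± 1.24 (SD, n = 4) CPM with beef, differences within their spread. With mouse 31 counted as beef the latter were 4.39 ± 1.53 (SD, n = 5) CPM and 5.10 ± 1.33 (SD, n = 5) CPM, so that salmon filet no longer had the lowest mean. For T cell genes without Zap70 and Tcf7 the means were 5.34 ± 1.097 (SD, n = 5) CPM, 4.58 ± 1.42 (SD, n = 6) CPM and 5.73 ± 1.263 (SD, n = 4) CPM. Moving mouse 31 to beef gave 4.63 ± 1.58 (SD, n = 5) CPM for salmon filet and 5.44 ± 1.268 (SD, n = 5) CPM for beef. Cytotoxic and NK genes summed to 5.21 ± 0.965 (SD, n = 5) CPM, 4.401 ± 0.845 (SD, n = 6) CPM and 5.05 ± 0.591 (SD, n = 4) CPM, with overlapping ranges in all 3 diets. Moving mouse 31 to beef gave 4.62 ± 0.733 (SD, n = 5) CPM for salmon filet and 4.70 ± 0.928 (SD, n = 5) CPM for beef. Mouse 31 had the lowest sum of all 40 genes of any library, 28.2 CPM.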

How the data were processed

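Liver RNA of 20 mice was sequenced as paired reads from a strand-specific mRNA kit. Per the labels and the study's methods the authors aligned trimmed reads with HISAT2 1.2.1 and counted them per gene with featureCounts 1.4.6-p1. The genome is printed there as GRCh38, although the reads are from mouse. The gene identifiers were matched to GENCODE M21 (GRCm38) here, whose positions are given, and strand and multi-mapping settings are not given in the sources used here. The authors deposited raw counts and a table of TPM values. The counts were tested with edgeR 4.0 in R 4.3 (TMM factors, filterByExpr with its minimum set to 10 counts, the quasi-likelihood test, Benjamini-Hochberg over all genes tested, called under 0.05), first with the 3 HFD groups pooled against chow. DESeq2 1.42, other filters and factors, limma 3.58 on log2(TPM + 1) and log2(TPM + 0.1), offsets for length and GC content, a clock covariate and leaving out each library were alternatives. The SE is the log2 fold change divided by the square root of F. Depth was 42526234 to 70266136 counts per library, and 33 of the 40 genes had a mean under 1 CPM, so counting noise weighs on single genes. On simulated data with 2-fold changes edgeR found 77% of changed genes, 66% of those with low counts, and 6.1% of its calls were false. DESeq2 found the same 77% and 66%, but 11.49% of its calls were false. The simulation gave every gene the same dispersion (0.08) and compared only HFD with chow. Its changed genes left out those with the fewest counts, so these rates do not describe such genes among the 40 or the comparisons of single diets. The 40 genes and all lists were chosen with earlier results of these data known. By the rule for named genes, values are given for every gene called in HFD versus chow and the 2 genes of highest mean TPM in each subset. In the other comparisons the genes called, or those of smallest p in each subset, are named, and in the further lists the called gene with the largest change.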

Additional observations from a re-analysis of the deposited data

Results flagged for a closer look

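Among 112 groups of 4 to 6 mice, for the genes given library by library and the summed subsets, 7 held a mouse that stood apart by Dixon's test at the 95% level, which chance alone gives in about 1 of 20 groups. Fishmeal mouse 12 had the highest Zap70 of its group, 16.6 CPM against 10.2 CPM in the next mouse, and the lowest Il2rg, 0.93 CPM against 1.72 CPM. Beef mouse 39 had the highest Gzmb, 0.976 CPM against 0.81 CPM, and the highest Klrb1c, 0.418 CPM against 0.159 CPM. Salmon mouse 22 had the highest Prf1, 0.42 CPM against 0.19 CPM. Fishmeal mouse 13 had the highest Blk, 0.339 CPM against 0.157 CPM. Beef mouse 32 had the highest Il2rg, 2.14 CPM against 1.232 CPM.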

How the results depend on the processing

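The direction of the 22 genes described library by library in HFD versus chow held under every alternative run in which they could be tested. The count of 19 called in HFD versus chow was 21 with DESeq2 and with offsets for length and GC content, but 11 of 25 with at least 10 counts in every library, 7 of 17 with limma on log2(TPM + 1), where fewer genes could be tested, and 2 with the clock covariate, where the median log2 fold change was -0.70. Leaving out each library gave 8 to 21, with 10 without chow mouse 1 and 8 without chow mouse 2 or 7. In fishmeal versus chow the count of 2 was 9 with DESeq2, 8 with the offsets, 4 in 1 fit of all groups, 1 with at least 10 counts in every library and 0 with limma at either pseudocount, and 0 to 2 without 1 library, being 0 without chow mouse 2 or fishmeal mouse 14 or 20 and 1 without chow mouse 7 or fishmeal mouse 12. In salmon filet versus chow the count of 9 was 20 with DESeq2, 2 with limma on log2(TPM + 1) and 1 on log2(TPM + 0.1), and 1 to 13 without 1 library (5 without chow mouse 1 or salmon mouse 23). In beef versus chow the count of 0 was 4 with DESeq2, 3 in 1 fit of all groups and 1 with the offsets, and 0 to 1 without 1 library. Between HFD groups it was 0 to 0 throughout. Shares of all genes called are given above for the main fits, DESeq2, the clock covariate and mouse 31 counted as beef or left out. They are not given for the other fits, including most of those without 1 library, so those counts cannot be set against them. The cause of these changes was not tested beyond the numbers of genes and libraries given. The ratio of the summed T cell genes, 0.837, was 0.634 without Zap70 and Tcf7. Library size alone in place of TMM moved no sum by more than its SD. Leaving out 1 library gave 0.809 to 0.86 for T cell genes, 0.772 to 0.861 for cytotoxic and NK genes, 0.443 to 0.56 for B cell genes, 0.605 to 0.677 for receptors and Ltb and 0.711 to 0.763 for all 40. No paired analysis was possible because each mouse has its own number and no replicate number is shared between diets by the labels.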
